A study of Mus musculus with 18 samples.

Results

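Oxidative phosphorylation is carried out by 5 protein complexes of the inner mitochondrial membrane, and 94 of the 16909 gene symbols in the table name their nuclear-encoded parts. Members were chosen by symbol alone: 50 began with Nduf followed by a, b, c, s or v (complex I), 4 were Sdha to Sdhd (complex II), 8 began with Uqcr (complex III), 15 with Cox4 to Cox8 (complex IV) and 17 with Atp5 (complex V). The rule also takes in complex I assembly factors (the Ndufaf genes) and Ndufa4, whose protein is now counted as a subunit of complex IV. Of the 94 members, 91 passed the filter on low counts and were tested. Cox4i2, the hypoxia-linked isoform of Cox4, had 0 to 4 counts in each library and was not tested, nor were Ndufb4b and Ndufab1-ps. Subunits encoded by the mitochondrial genome are not analysed here.

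The study sequenced RNA of mouse macrophages from bone marrow, in 18 libraries. Con was the mock group (3 libraries), and LPS, bacterial lipopolysaccharide given to provoke inflammation, had 5. STSABs and UVABs (5 each) received apoptotic bodies, which are membrane-wrapped fragments of dying cells, from hucMSC that had been induced with STS or UV respectively. Whether LPS was added to the apoptotic-body groups, and the doses and times used, is not in the labels. Nor do they say that the replicates came from separate cultures or animals, and p-values therefore reflect only library-to-library spread, part of which may be technical.

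Complexes I and II pass electrons from NADH and succinate to coenzyme Q, complex III passes them to cytochrome c, and complex IV hands them to oxygen. Complexes I, III and IV pump protons as they do so, and complex V, the ATP synthase, uses the returning protons to make ATP. In macrophages the balance between respiration and glycolysis is known to shift on activation, and complex II also links the chain to the tricarboxylic acid cycle.

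Library totals ran from 17588400 to 18675300 estimated counts, so depth was even. The scaling was not: mean TMM factors, which correct for a few genes taking a large share of the reads, were 1.51 in Con against 0.902 in LPS, 0.932 in STSABs and 0.928 in UVABs. Levels below are TMM-scaled CPM, the usual depth-scaled count rate, and changes are log2 fold changes ± standard error from edgeR's quasi-likelihood test with Benjamini-Hochberg adjustment over the 12465 genes tested, called at an adjusted p under 0.05. Between LPS and Con, the median log2 change of all genes was -0.03 with TMM, -0.01 with DESeq2 size factors, -0.31 with upper-quartile scaling and -0.78 with library totals, so directions against Con are given with the scalings that alter them. Ndufb4 and Ndufb4c had values that were not whole numbers in all 18 libraries, so reads may be split between relatives and their values are uncertain.

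The promoters of 4 members that the results turn on are shown first, from the RefSeq table of build GRCm38.p6, each covering 250 bases before and 50 after the gene start. Cox7a2l, Ndufa6 and Ndufb11 were lower in LPS than in Con and higher with apoptotic bodies than with LPS, and Ndufaf4 was lower at both steps. Capitals mark matches on either strand to the NRF1 motif GCATGCGC or the YY1 motif AANATGGCG.
Cox7a2l, chr17:83514284-83514583, minus strand: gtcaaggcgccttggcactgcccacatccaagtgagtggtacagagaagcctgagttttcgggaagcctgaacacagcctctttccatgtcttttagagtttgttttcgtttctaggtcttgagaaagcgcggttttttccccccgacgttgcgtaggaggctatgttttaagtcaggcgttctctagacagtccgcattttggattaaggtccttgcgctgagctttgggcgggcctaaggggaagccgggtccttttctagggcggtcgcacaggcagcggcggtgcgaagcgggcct
Ndufa6, chr15:82354242-82354541, minus strand: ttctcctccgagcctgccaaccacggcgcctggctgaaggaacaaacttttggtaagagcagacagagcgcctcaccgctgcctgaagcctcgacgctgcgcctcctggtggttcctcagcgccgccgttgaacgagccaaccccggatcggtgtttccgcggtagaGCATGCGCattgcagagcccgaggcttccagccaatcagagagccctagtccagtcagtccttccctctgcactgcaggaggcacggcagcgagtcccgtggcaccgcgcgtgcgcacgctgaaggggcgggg
Ndufb11, chrX:20617570-20617869, minus strand: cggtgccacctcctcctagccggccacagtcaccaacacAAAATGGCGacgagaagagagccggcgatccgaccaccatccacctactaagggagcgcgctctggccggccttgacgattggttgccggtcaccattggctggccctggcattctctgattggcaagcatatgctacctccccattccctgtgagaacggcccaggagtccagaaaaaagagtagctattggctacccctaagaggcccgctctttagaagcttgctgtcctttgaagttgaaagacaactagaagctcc
Ndufaf4, chr4:24897833-24898132, plus strand: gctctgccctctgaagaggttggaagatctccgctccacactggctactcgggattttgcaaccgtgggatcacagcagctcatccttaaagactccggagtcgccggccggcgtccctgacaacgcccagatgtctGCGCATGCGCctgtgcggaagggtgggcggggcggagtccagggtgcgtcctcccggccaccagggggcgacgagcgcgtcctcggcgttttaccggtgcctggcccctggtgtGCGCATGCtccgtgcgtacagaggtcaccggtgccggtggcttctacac
Cox7a2l held neither motif in this window, Ndufa6 held 1 NRF1 match, Ndufb11 held 1 YY1 match, and Ndufaf4 held 3 NRF1 matches that partly overlap. None of these 4 promoters held the ETS motif CCGGAAG. The table matched 76 of the 94 members with 81 promoters. NRF1 matches were in 14.8% of member promoters against 2.71% of all 32851 promoters, YY1 matches in 13.6% against 2.38%, and ETS matches in 23.5% against 8.86%. The ETS and YY1 motifs can share bases. A match describes the letters only, and no binding was measured.

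With TMM scaling, most transcripts of cytochrome oxidase and of the ATP synthase were higher in LPS than in Con, while most core and assembly genes of complex I were lower. With library totals the median log2 changes of cytochrome oxidase (complex IV) and the ATP synthase (complex V) were negative too, at -0.15 and -0.38. With TMM scaling, 51 of the 91 tested members were higher in LPS than in Con and 20 were lower, where 40% of all genes were higher and 43% lower. That count depends on the scaling: of the 51, all stayed higher with DESeq2 size factors, 28 with upper-quartile scaling and 4 with library totals, under which 31 were called lower. Of the 20 lower members, 18 were also lower with DESeq2 size factors and all 20 with each of the other scalings. Upper-quartile scaling and library totals move the median of all genes down, to -0.31 and -0.78. They could therefore hardly undo a decrease called with TMM. For decreases, here and in single genes below, a call kept under these scalings is no separate support. Over all genes, 48.2% of calls were increases with TMM, 36.0% with upper-quartile scaling and 21.2% with library totals.

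The complexes are given below by their median log2 change and by its distance from the median of all genes. A scaling shifts all genes by about the same amount, so that distance is the same under each scaling by construction and says nothing about stability. Complex IV had the highest median log2 change, 0.60 (12 higher and 2 lower of 14) with TMM and -0.15 with library totals, and it lay 0.63 above the median of all genes. Complex III followed at 0.41 (5 higher and 0 lower of 8; -0.33 with library totals) and lay 0.44 above the median gene. Complex V was at 0.37 (12 higher and 1 lower of 17; -0.38 with library totals), 0.40 above. Complex II was at 0.05 (1 higher and 1 lower of 4; -0.69 with library totals) and complex I at -0.01 (21 higher and 16 lower of 48; -0.75 with library totals), which put them 0.09 and 0.02 above the median gene. These differences between complexes were not tested.

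**Figure D1:**
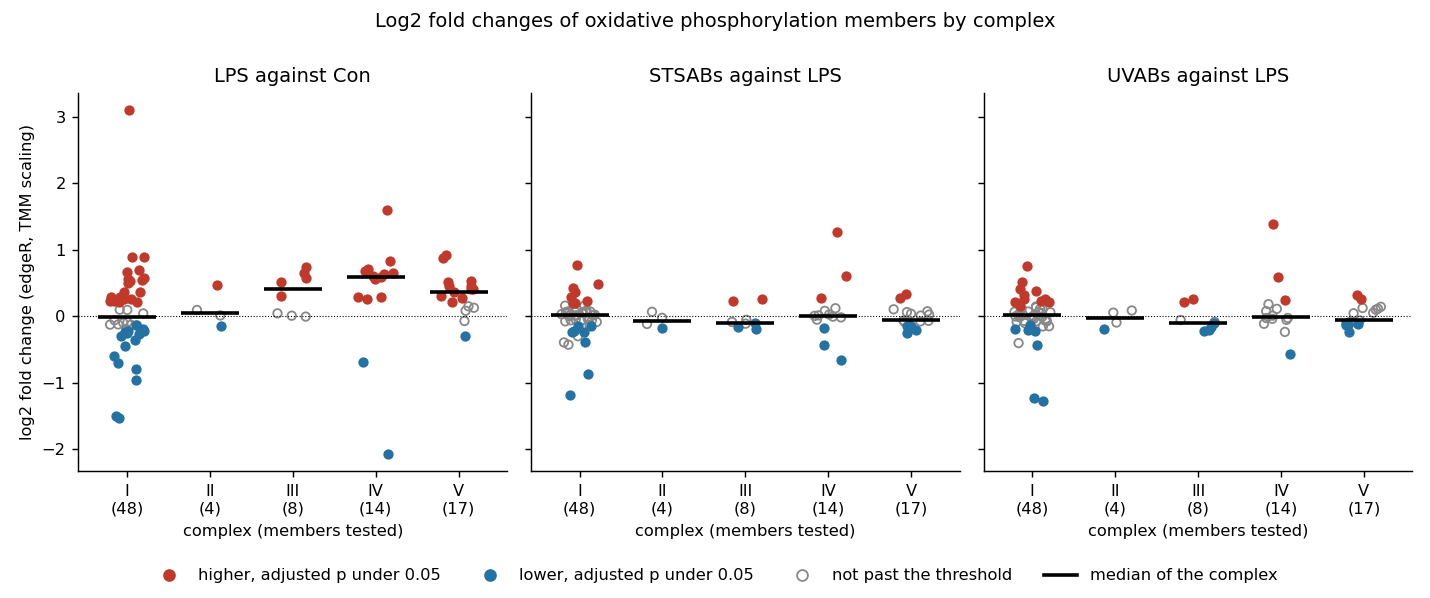
Log2 fold change (edgeR, TMM scaling) of each tested member, by complex, in LPS against Con and in each apoptotic-body group against LPS. Filled points are called at an adjusted p under 0.05 and bars are medians: against Con the medians are 0.60 for complex IV and -0.01 for complex I, which with library totals are -0.15 and -0.75, while against LPS they lie near 0.

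**Figure D2:**
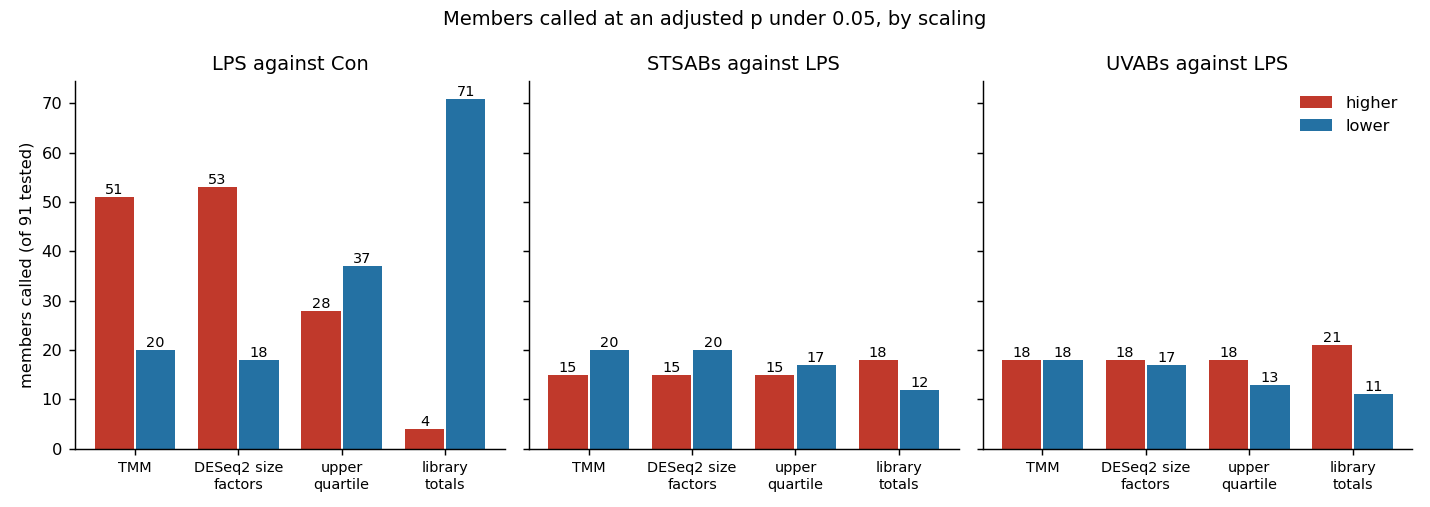
Number of the 91 tested members called higher or lower, under 4 scalings. For LPS against Con the counts go from 51 higher and 20 lower with TMM to 4 and 71 with library totals, while the counts against LPS move less.

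Summed over members, complex IV was at 1215 ± 47.4 CPM in Con (SD, n = 3) and 1498 ± 38.8 in LPS (SD, n = 5) with TMM, but at 1836 ± 65.9 and 1351 ± 39.3 as CPM of library totals. Complex V was at 2191 ± 79.9 and 2624 ± 62.6 with TMM, against 3311 ± 110 and 2367 ± 60.3 of library totals. Complex I was at 1363 ± 54.2 and 1388 ± 26.04 with TMM, against 2060 ± 75.6 and 1252 ± 25.7 of library totals. As a share of all counts, the 94 members took 0.848% ± 0.0287 in Con and 0.588% ± 0.0147 in LPS. In bulk RNA, fewer cells of a type and less RNA per cell cannot be told apart.

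**Figure D3:**
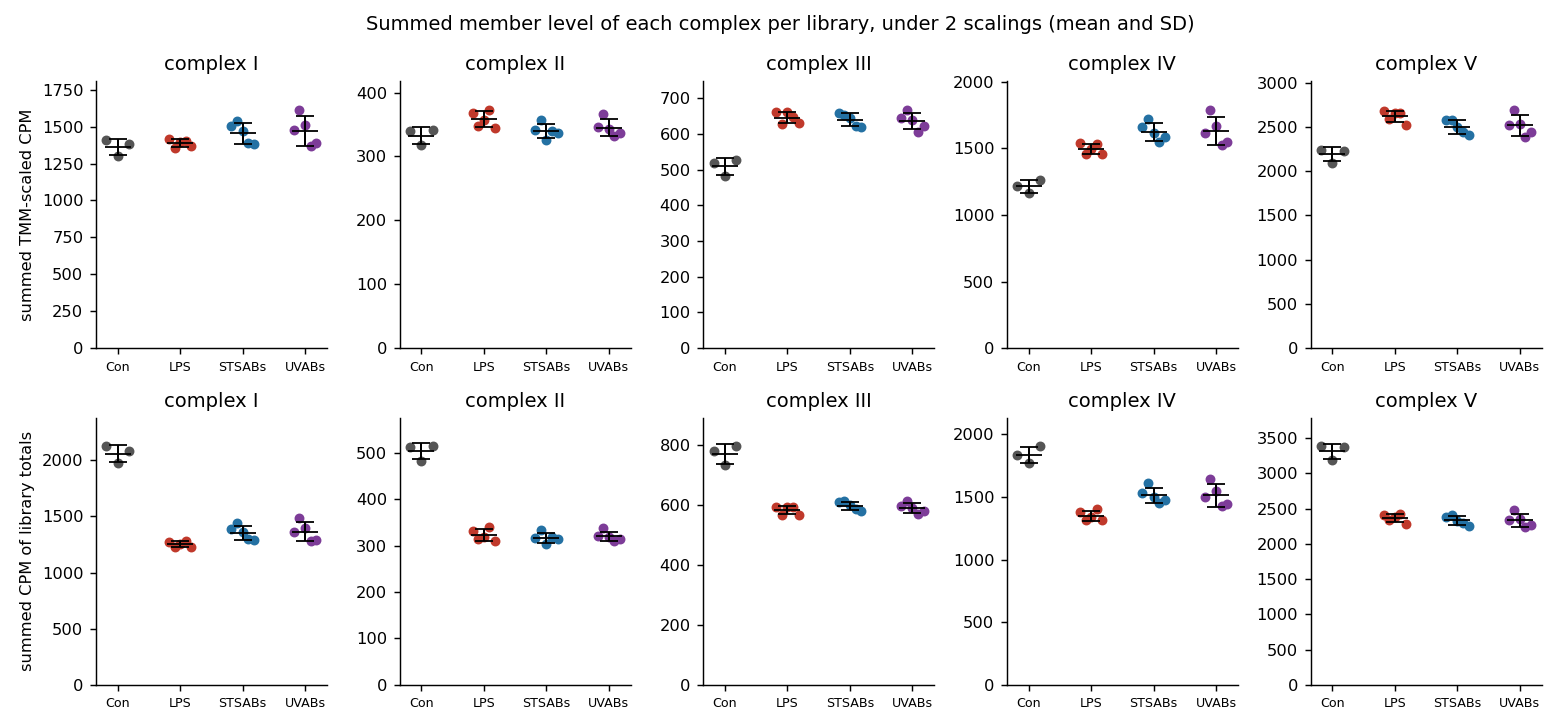
Summed level of the members of each complex in each library, as TMM-scaled CPM (top row) and as CPM of library totals (bottom row), with group mean and SD. Complexes III, IV and V are higher in LPS than in Con in the top row and lower in the bottom row.

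Within complex I, the parts moved in different directions. Of 7 core subunits, which carry the flavin and iron-sulphur centres of electron transfer, 5 were lower in LPS and 1 was higher (median -0.24). Of all genes, 43% were lower and 40% higher in this comparison. Ndufs7, a core iron-sulphur subunit, was at 22.6, 23.5 and 27.4 CPM in the Con libraries and 15.3, 14.7, 15.2, 14.5 and 15.7 in LPS. All LPS libraries lay below all Con libraries, a change of -0.70 ± 0.091 (adjusted p 2.89e-07, edgeR's quasi-likelihood test). Ndufs1, Ndufs8 and Ndufv1 were lower by smaller amounts, with log2 changes of -0.22, -0.27 and -0.25. Ndufs3, another core subunit, went the other way with 0.28 under TMM and -0.46 under library totals, and Ndufv2 was at 0.10 and did not pass the test.

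Assembly factors of complex I, which help build the enzyme without staying in it, held the steepest falls of that complex. Of the 8 tested, 5 were lower and 0 were higher (median -0.52), beside 43% and 40% of all genes. Ndufaf7, a mitochondrial methyltransferase, was at 9.30, 9.21 and 8.57 CPM in Con and at 2.99, 3.33, 2.76, 3.06 and 3.50 in LPS. Ndufaf4 was at 8.98, 8.63 and 9.07 in Con and at 3.47, 2.79, 3.06, 2.64 and 3.74 in LPS. Neither gene's groups overlapped, and the log2 changes were -1.53 ± 0.12 for Ndufaf7 and -1.50 ± 0.14 for Ndufaf4 (adjusted p 6.97e-11 and 8.43e-10, edgeR's quasi-likelihood test).

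Accessory subunits, which surround the core, were more often higher than lower with TMM, beside 40% and 43% of all genes. In the matrix arm 6 of 9 were higher and 2 lower (median 0.23). In the membrane arm 11 of 20 were higher and 4 lower (median 0.22). Both medians become negative with library totals. Ndufs4, a matrix-arm subunit needed for a stable complex, was at 25.2, 22.4 and 21.8 CPM in Con and 42.1, 41.8, 42.2, 43.9 and 44.0 in LPS. The groups did not overlap, and its increase of 0.89 ± 0.060 (adjusted p 5.75e-12, edgeR's quasi-likelihood test) was called under all 4 scalings. Ndufa6, a matrix-arm subunit that holds the acyl carrier protein, fell instead, from 47.0, 45.0 and 47.9 in Con to 25.1, 23.1, 24.6, 25.3 and 21.9 in LPS, a change of -0.96 ± 0.083 (adjusted p 4.39e-10, same test). Ndufb11 in the membrane arm fell by 0.36 on the log2 scale, with 45.1, 41.6 and 39.4 in Con and 32.6, 32.2, 31.7, 35.1 and 32.4 in LPS.

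Ndufa4 and its isoform relatives gave unlike values. Ndufa4 was at 10.97 ± 0.923 CPM in Con (SD, n = 3) and 13.1 ± 0.563 in LPS (SD, n = 5). Its change of 0.26 was -0.023 with upper-quartile scaling, -0.49 with library totals, and 0.19 without Con replicate 2, where it was no longer called. Ndufa4l2, the hypoxia-linked relative, rested on 0, 4 and 5 counts in Con and 15, 11, 15, 17 and 23 in LPS; all LPS libraries were above all Con libraries, and the change of 3.10 ± 0.48 was called under all 4 scalings. AA467197, a further relative of Ndufa4 that lies outside the symbol rule, was far more abundant: 340, 312 and 329 CPM in Con against 1985, 2007, 1987, 1854 and 2016 in LPS. That was a log2 change of 2.59 ± 0.069 (adjusted p 2.21e-19, edgeR's quasi-likelihood test), and 1.85 with library totals.

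Complex II changed little with TMM. Sdhc, a membrane anchor, was at 52.6, 48.9 and 57.5 CPM in Con and 74.6, 69.2, 69.5, 76.5 and 76.7 in LPS, with no overlap and a change of 0.47 ± 0.064, which was -0.28 with library totals. Sdha, the flavoprotein that oxidises succinate, was at 0.09 ± 0.052 and Sdhd, the other anchor, at 0.01 ± 0.068, neither past the test, and both were lower with upper-quartile scaling (-0.18 and -0.27). Sdhb, the iron-sulphur subunit, was at -0.15 ± 0.065 with an adjusted p of 0.0429 (edgeR's quasi-likelihood test), and lost its call without Con replicate 1 (-0.09), Con replicate 3 (-0.14), LPS replicate 2 (-0.15), LPS replicate 3 (-0.14), LPS replicate 4 (-0.12) or LPS replicate 5 (-0.14).

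In complex III, Uqcrfs1, the Rieske iron-sulphur protein, had the largest rise with TMM. It was at 84.8, 86.8 and 94.8 CPM in Con and 156, 148, 152, 153 and 136 in LPS, a change of 0.75 ± 0.053 (adjusted p 1.07e-11, edgeR's quasi-likelihood test) with no overlap. With library totals its change was 0.0033 and was not called. The scaffold proteins Uqcrc1 and Uqcrc2 were at 0.04 and -0.00 and did not pass the test with TMM. With library totals both were called lower, at -0.70 and -0.75. Of the 5 small accessory subunits 4 were higher, beside 40% of all genes. Among them were Uqcr11 at 0.65 and Uqcrh at 0.57, which were -0.10 and -0.17 with library totals.

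In complex IV, all 10 subunits of the ubiquitous or liver type were higher with TMM (median 0.60), beside 40% of all genes. None of these calls held with library totals. Cox4i1, a regulatory subunit with the highest level per kilobase of exon among members in Con (352 CPM per kb, ahead of Atp5b at 282 and Cox7a2l at 232), changed by 0.26 ± 0.056, which was -0.018 with upper-quartile scaling and -0.48 with library totals. Cox7c, a small structural subunit, was at 39.2, 57.4 and 74.8 CPM in Con and 97.1, 101, 102, 100.3 and 108 in LPS. All LPS libraries were above all Con libraries, but the Con libraries themselves were spread widely. Its change was 0.83 ± 0.13 (adjusted p 3.3e-06, edgeR's quasi-likelihood test), and 0.086 with library totals, where it was not called. Cox6a1 and Cox6b1 followed at 0.64 and 0.72, which were -0.10 and -0.028 with library totals.

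Isoforms known from heart, muscle or testis were low. Cox6b2, the testis form of Cox6b, changed by 0.68 ± 0.15 with TMM, which was -0.063 with library totals. Cox6a2, the heart and muscle form of Cox6a, fell from 2.32, 2.20 and 1.99 CPM in Con to 0.479, 0.606, 0.552, 0.240 and 0.675 in LPS, on 4 to 11 counts in each LPS library. That was a change of -2.08 ± 0.24 (adjusted p 4.28e-08, edgeR's quasi-likelihood test), called under all 4 scalings. Cox7a1, the muscle form of Cox7a, rose from 0.253, 0.469 and 0.434 CPM to 1.14, 1.21, 1.29, 0.961 and 1.29, a change of 1.59 ± 0.29. Cox7a2l, which joins complexes III and IV into supercomplexes, fell from 272, 262 and 264 CPM in Con to 182, 164, 162, 166 and 156 in LPS. The groups did not overlap, and the change was -0.68 ± 0.053 (adjusted p 6.52e-11, same test).

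In complex V, the catalytic subunits Atp5a1 and Atp5b rose by 0.28 ± 0.048 and 0.30 ± 0.045 with TMM, but were at -0.46 and -0.44 with library totals. Atp5b was at 541, 529 and 551 CPM in Con and 696, 663, 675, 672 and 625 in LPS, without overlap. Atp5c1, the central stalk of the rotor, was lower under all 4 scalings, at 175, 164 and 168 in Con and 155, 138, 136, 128 and 132 in LPS (-0.29 ± 0.060). All 5 membrane accessory subunits were higher with TMM (median 0.54), beside 40% of all genes. Of these, Atp5md, known as DAPIT, kept its call under all 4 scalings: 24.8, 18.9 and 23.5 in Con, 41.6, 41.3, 39.3, 46.2 and 43.3 in LPS, a change of 0.92 ± 0.079. The 3 genes for the c-ring, which encode the same mature protein, were at 0.41 (Atp5g1), -0.07 (Atp5g2, not past the test) and 0.46 (Atp5g3). Atp5g1 varied from 27.0 to 58.4 CPM among the Con libraries and was not called without Con replicate 1 (0.19) or without Con replicate 2 (0.32).

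The change against Con is set beside gene length here. Across the 91 members, Spearman's rho of the log2 change in LPS with summed exon length was -0.36, against 0.01 across 12151 genes. Genes share libraries and are not independent replicates, so the values are a description. Members of up to 500 bases had a median of 0.62 (n = 6) against 0.33 for 56 other genes of that length, and those of 500 to 1000 bases had 0.29 (n = 39) against 0.09 for 446 others. Members of 1000 to 1500 bases had 0.17 (n = 22) against -0.09, those of 1500 to 2000 bases 0.04 (n = 11) against -0.09, and those of 2000 to 3000 bases -0.14 (n = 8) against -0.13. The 5 members above 3000 bases went against this order, with 0.41 against -0.00 for 6723 others. Complex IV members were the shortest, with a median of 710.5 bases against 1014.5 in complex I and 1001 over all members. The part of length in the differences between complexes was not tested.

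**Figure D4:**
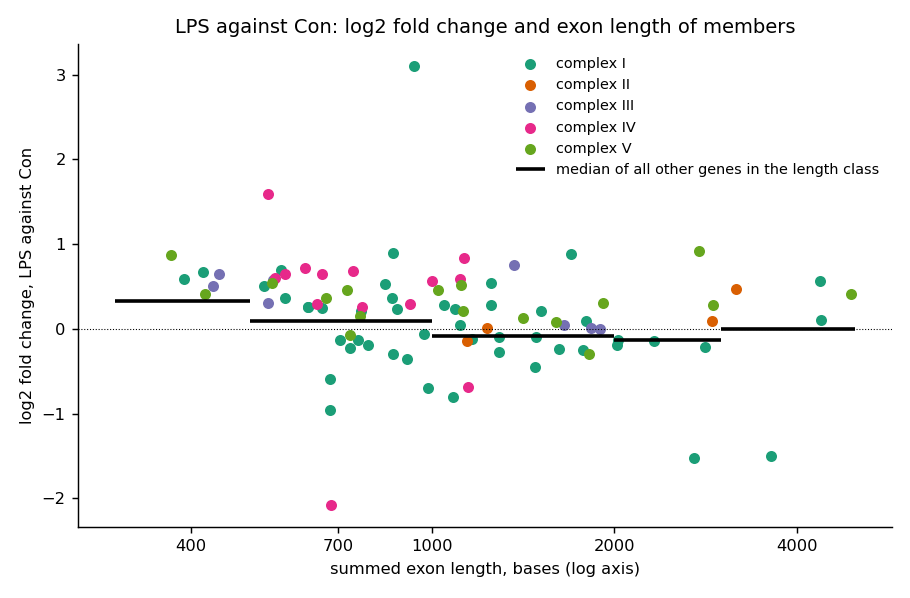
Log2 fold change of each tested member in LPS against Con (TMM scaling) by summed exon length on a log axis, coloured by complex; black bars are the median of all other genes in the same length class. Members of up to 500 bases have a median of 0.62 against 0.33 for other genes, those of 2000 to 3000 bases -0.14 against -0.13, and the 5 above 3000 bases 0.41 against -0.00.

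Against LPS, fewer members were called in the apoptotic-body groups than in the comparison with Con. In STSABs 15 members were higher and 20 lower than in LPS, where 28.4% of all genes were higher and 29% lower. In UVABs 18 were higher and 18 lower, beside 28.6% and 28.8% of all genes. The members' median log2 change was 0.00 in STSABs and -0.00 in UVABs. The decreases are the less stable side when 1 library is left out in turn. In STSABs 12 of 20 decreases and 12 of 15 increases were kept each time, and in UVABs 10 of 18 and 13 of 18. Without UVABs replicate 4 the UVABs count of decreases was 11. With library totals 12 remained lower in STSABs and 11 in UVABs. That scaling put the median of all genes at 0.04 in both comparisons, so part of this loss of decreases is built in. All comparisons named here share the LPS libraries, so their values are given side by side and not as separate evidence.

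By complex, the members higher and lower in STSABs numbered 8 and 8 in complex I, 0 and 1 in II, 2 and 3 in III, 3 and 3 in IV, and 2 and 5 in V. In UVABs they numbered 11 and 7, 0 and 1, 2 and 4, 3 and 1, and 2 and 5. No complex had a median log2 change beyond 0.10 in either direction.

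Cox7a2l was at 261, 258, 248, 248 and 248 CPM in STSABs and 250, 260, 267, 233 and 238 in UVABs, where the LPS libraries had 156 to 182. Every apoptotic-body library was above every LPS library. The changes were 0.61 ± 0.047 in STSABs and 0.59 ± 0.047 in UVABs (adjusted p 6.58e-10 and 9.68e-10, edgeR's quasi-likelihood test). Against Con the differences of -0.08 ± 0.054 and -0.09 ± 0.054 did not pass the test with TMM, but this depends on the scaling. Unscaled, Cox7a2l had 7268 to 7506 counts in Con, 4144 to 4504 in STSABs and 4008 to 4497 in UVABs. With library totals the median of all genes was itself -0.74 in both groups against Con. Higd1a, a hypoxia-inducible partner of the supercomplexes from a separate list, was also higher: LPS libraries averaged 22.9 ± 1.45 CPM, STSABs 38.9 ± 2.70 and UVABs 41.9 ± 3.10 (SD, n = 5 each).

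Ndufa6 was at 43.0, 45.0, 43.5, 36.3 and 37.4 CPM in STSABs and at 41.0, 47.2, 38.01, 35.1 and 41.5 in UVABs. These libraries all lay above the LPS maximum of 25.3, with changes of 0.77 ± 0.076 and 0.76 ± 0.076. Ndufb11 was at 44.7, 45.6, 44.3, 37.0 and 39.7 in STSABs and 41.7, 46.6, 41.2, 36.3 and 38.4 in UVABs, all above LPS, with changes of 0.37 ± 0.069 and 0.32 ± 0.069. For both genes every adjusted p against LPS was 0.000535 or less (edgeR's quasi-likelihood test).

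Ndufaf4 fell further. It was at 1.22, 1.34, 1.26, 1.75 and 1.29 CPM in STSABs and 1.39, 1.80, 1.31, 1.46 and 0.705 in UVABs, all below the LPS minimum of 2.64. The changes were -1.19 ± 0.17 and -1.24 ± 0.17 (adjusted p 3.34e-06 and 2.32e-06, edgeR's quasi-likelihood test), on 12 to 30 counts in each library. Ndufaf3, another assembly factor, was higher in both, at 0.48 ± 0.092 and 0.52 ± 0.092. Ndufs1, the largest core subunit, was lower again, at -0.23 ± 0.066 and -0.22 ± 0.066, with ranges that overlap those of LPS. The UVABs call of Ndufs1 was lost with replicates 1 to 3 only. Ndufa5, a matrix-arm accessory subunit, was lower at -0.39 ± 0.091 and -0.43 ± 0.092.

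Other complexes held smaller changes. Sdha was at 133, 130, 125, 133 and 134 CPM in STSABs and 134, 137, 127, 124 and 129 in UVABs, below the 140 to 160 of LPS. The changes were -0.18 ± 0.045 and -0.19 ± 0.045 (adjusted p 0.00201 and 0.00127, edgeR's quasi-likelihood test). Uqcrq, an accessory subunit of complex III, was higher by 0.26 ± 0.074 and 0.27 ± 0.074, and Uqcrc1 lower at -0.16 ± 0.054 in both. The Uqcrc1 ranges overlap those of LPS, and its STSABs call was lost with library totals. With replicates 1 to 3 only, Uqcrc1 was called in neither group and Sdha was not called in UVABs. Cox5a, a subunit of complex IV, was higher by 0.27 ± 0.060 and 0.24 ± 0.060. Cox6a2 was at 1.51, 1.22, 1.32, 1.11 and 1.06 in STSABs and 1.64, 0.719, 1.54, 1.51 and 1.29 in UVABs, all above LPS, with changes of 1.27 ± 0.25 and 1.39 ± 0.25.

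Atp5b was lower, at 582, 558, 550.2, 566 and 547 CPM in STSABs and 560.3, 569, 560, 563 and 563 in UVABs. All lay below the LPS minimum of 625, and the changes were -0.25 ± 0.039 and -0.24 ± 0.039 (adjusted p 1.16e-05 and 1.59e-05, edgeR's quasi-likelihood test). Atp5g2 was higher by 0.34 ± 0.062 and 0.32 ± 0.062, while Atp5g3 was lower at -0.20 ± 0.054 in STSABs and at -0.13 in UVABs. With replicates 1 to 3 only, Atp5g3 was called in neither group. Its UVABs call was also lost in 6 of the 18 fits that left out 1 library. Ndufa4l2 was lower in UVABs at -1.27 ± 0.36, on 4 to 8 counts in each library, and was not called with replicates 1 to 3 only. In STSABs it was at -0.88 ± 0.34, a call lost without LPS replicate 4 (-0.86), LPS replicate 5 (-0.71), STSABs replicate 3 (-0.80), STSABs replicate 4 (-0.72) or STSABs replicate 5 (-0.72).

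**Figure D5:**
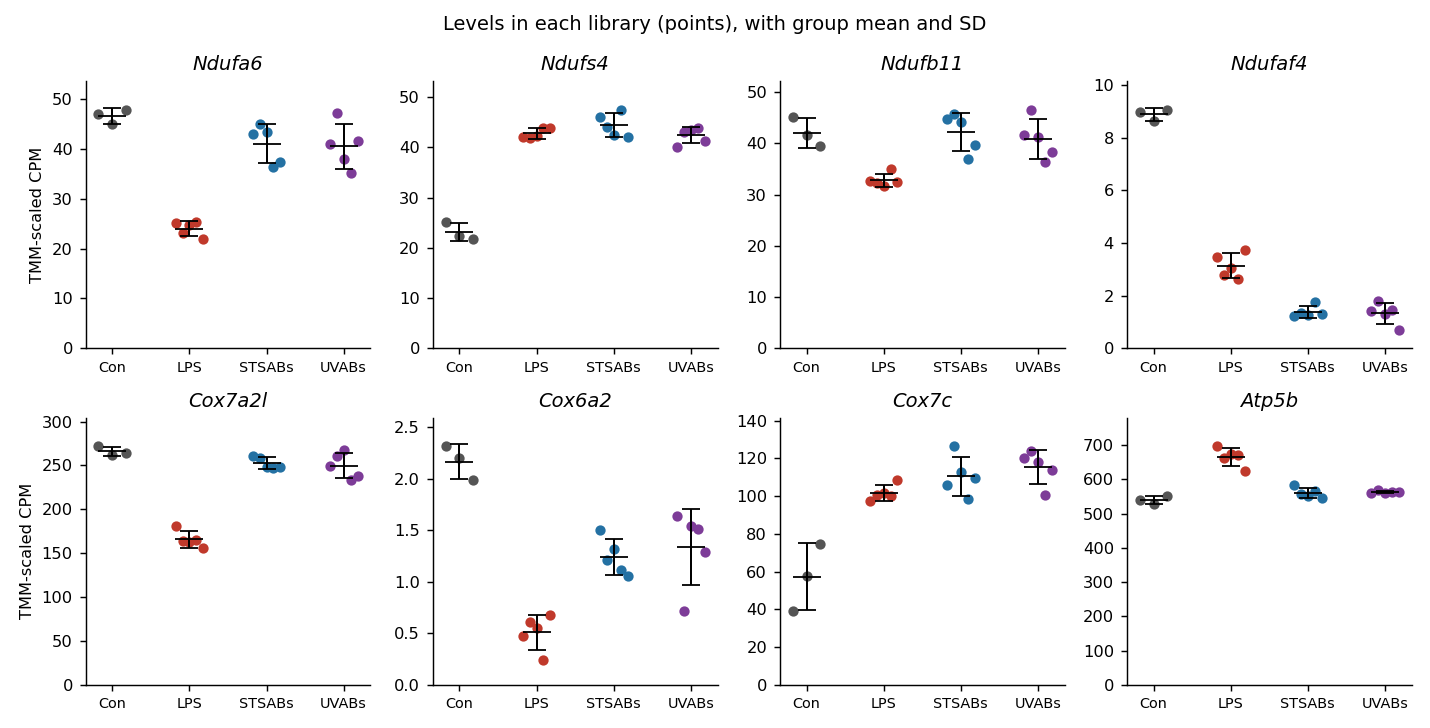
TMM-scaled CPM of 8 members in each of the 18 libraries (points), with group mean and SD. Cox7a2l, Ndufa6, Ndufb11 and Cox6a2 are lowest in LPS, Ndufs4 is higher in LPS than in Con, Ndufaf4 is lowest in both apoptotic-body groups, and Cox7c and Atp5b are higher in LPS than in Con (for Atp5b this turns to -0.44 with library totals).

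STSABs and UVABs were not told apart. No member, and no gene of all 12465, passed edgeR's quasi-likelihood test between them (0% higher and 0% lower). At an unadjusted p under 0.05 there were 198 genes with edgeR, 151 with DESeq2 and 191 with limma-voom, 0 of them members with each tool. Member differences (UVABs over STSABs) ran from -0.39 for Ndufa4l2 to 0.42 for Cox7a1, 81 of 91 lay within 0.1 of 0, and their median standard error was 0.0709. A miss of the threshold does not show that the preparations act alike.

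Against Con, the members stood much as in LPS. In STSABs 51 were higher and 18 lower, beside 40% and 42.6% of all genes, and in UVABs 51 were higher and 17 lower, beside 40.2% and 42.4%. These counts depend on the scaling as for LPS, and with library totals they were 3 and 67 in STSABs and 5 and 68 in UVABs. All 10 ubiquitous complex IV subunits were higher than Con in both groups with TMM.

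Genes around the chain were taken from separate lists. Cycs, the mobile electron carrier cytochrome c, rose from 56.4 ± 4.97 CPM in the Con libraries (SD, n = 3) to 178 ± 8.81 with LPS (SD, n = 5), and stood at 141 ± 12.4 with STSABs and 144 ± 6.61 with UVABs. Its changes were 1.66 ± 0.074 in LPS against Con, -0.34 ± 0.060 in STSABs against LPS and -0.31 ± 0.060 in UVABs against LPS. Cyc1, the cytochrome of complex III itself, was at 0.20 ± 0.091 in LPS, which was -0.54 with library totals and lost its call in several fits that left out a library, among them Con replicate 1 (0.15) and LPS replicate 3 (0.18).

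Among 23 tested assembly factors of complex IV, 11 were higher and 7 lower in LPS with TMM, beside 40% and 43% of all genes. In each apoptotic-body group against LPS 4 were higher and 11 lower. The shares of all genes were 28.4% and 29% in STSABs and 28.6% and 28.8% in UVABs. Sco1, a copper chaperone, was at 9.01 ± 0.420 CPM in Con (SD, n = 3) and 84.2 ± 4.87 in LPS (SD, n = 5), a change of 3.22 ± 0.11. Cox17, which hands copper to Sco1, rose by 1.58 ± 0.086 in LPS and again by 0.51 ± 0.069 in STSABs and 0.61 ± 0.069 in UVABs against LPS. Sco1 and Cox17 both rose in LPS, while 7 of the 23 factors were lower there. Against LPS, Cox17 went the opposite way to the 11 lower factors in each apoptotic-body group. Of 11 further complex I assembly genes 3 were higher and 7 lower in LPS with TMM. Of 11 coenzyme Q synthesis genes 4 were higher and 5 lower, again beside 40% and 43% of all genes.

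Of 10 tested regulators of respiratory genes, 4 were higher and 5 lower in LPS with TMM, beside 40% and 43% of all genes. In each apoptotic-body group against LPS 0 were higher and 5 lower. There the shares of all genes were 28.4% and 29% in STSABs and 28.6% and 28.8% in UVABs. Ppargc1b, a coactivator of mitochondrial biogenesis, was at 16.1 ± 1.64 CPM in Con (SD, n = 3) and 0.957 ± 0.261 in LPS (SD, n = 5), a change of -4.06 ± 0.20. Pprc1, a related coactivator, was at -0.35 ± 0.086 in LPS against Con, -1.53 ± 0.088 in STSABs against LPS and -1.63 ± 0.089 in UVABs against LPS. Polrmt, the mitochondrial RNA polymerase, was at -0.62, -0.71 and -0.83 in the same order, and Tfb2m, its transcription factor, at -1.13, -0.55 and -0.51. All changes of Ppargc1b against Con and of Pprc1, Polrmt and Tfb2m in the 3 comparisons passed the test (edgeR's quasi-likelihood test).

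Markers of macrophages summed to 11760 to 12639 CPM in Con, 13070 to 14546 in LPS, 10402 to 11766 in STSABs and 11346 to 12679 in UVABs, and all 12 were detected. The sum hides unlike directions: in LPS against Con 4 of the 12 were higher and 6 lower with TMM, beside 40% and 43% of all genes. Neutrophil markers moved with the apoptotic-body groups: their sum was 945 to 1133 in Con, 1307 to 1749 in LPS, 2270 to 3374 in STSABs and 2314 to 2814 in UVABs. Against LPS, 9 of 9 were higher in STSABs and 8 of 9 in UVABs, beside 28.4% and 28.6% of all genes. In LPS against Con 5 of the 9 were higher and 3 lower, beside 40% and 43%. Dendritic-cell markers summed to 136 to 152 in Con and 584 to 627 in LPS, although of 5 tested only 2 were higher and 2 were lower. B-cell markers summed to 2.34 to 7.18 and T- and NK-cell markers to 5.05 to 8.68 over all libraries, with Cd3e, Cd3g, Cd3d, Ncr1, Ms4a1 and Pax5 below 1 CPM. Stromal markers summed to 9.09 to 9.87 in Con and 18.2 to 33.6 in the other groups, with Col3a1, Pdgfra and Dcn below 1 CPM. Endothelial markers summed to 43.6 to 46.3 in Con and 427 to 636 in the other groups, with Tek and Emcn below 1 CPM. The part of these markers in the members' changes was not tested.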

How the data were processed

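The deposited values are the authors' estimated counts, not normalized, for 16909 gene symbols in 18 libraries. They were rounded before testing, since 6.35% of them were not whole. Per the labels' protocols the RNA was poly(A)-selected and the libraries were stranded, and the submitters' processing notes name HISAT2 and build mm39. Neither the counting tool nor its strand setting or annotation is given in the sources used here. Reads of overlapping or antisense genes may therefore be mixed. No pair of libraries within a group agreed within sampling noise (chi-square per degree of freedom of at least 2.30).

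Genes were filtered with filterByExpr by group, scaled by TMM and fitted with edgeR's quasi-likelihood test (edgeR 4.0.16, R 4.3.3) over all 18 libraries, with Benjamini-Hochberg adjustment over 12465 genes at 0.05. Standard errors were taken from the fold change and its F statistic. The test was tested on simulated data. The alternatives tried were DESeq2 size factors and upper-quartile scaling, library totals without factors, DESeq2 1.42.0 and limma-voom (limma 3.58.1) as tests, other filters, fits of the compared groups alone, replicates 1 to 3 only, terms for replicate sets and numbers, and each library left out in turn. In STSABs and UVABs libraries with the same replicate number deviated together to differing degrees (r from 0.131 to 0.643 over 5 pairs), while other groups gave -0.121 to 0.173. These ranges overlap, and neither STSABs replicate 5 nor UVABs replicate 5 correlated best with its own number. That check therefore does not show pairing for every number. Totals of 17588400 to 18675300 set the precision.

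Genes were named by a rule: a panel of core subunits, isoforms and Sdh genes, the largest called changes in each complex, and set members of the other lists; further members were named after their values were seen, and a result that the rule names is not reported here. Members and lists were chosen with earlier results of these data known. Exon lengths came from GENCODE M21 and promoters from RefSeq, both of the GRCm38 build and matched by symbol.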

Additional observations from a re-analysis of the deposited data

Results flagged for a closer look

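In 7 of the 87 groups of 5 libraries examined for named members, a single library lay farther from the rest than the 95% limit of Dixon's gap test allows, where chance gives about 1 in 20. STSABs replicate 2 was high for 3 genes: Sdhc at 81.0 CPM (others 68.4 to 71.8), Sdhd at 98.0 (others 87.0 to 89.8) and Atp5a1 at 541 (others 492 to 503). STSABs replicate 4 was high for Ndufaf4 at 1.75 CPM (others 1.22 to 1.34) and low for Uqcrh at 116 (others 127 to 131). LPS replicate 4 was high for Ndufb11 at 35.1 CPM (others 31.7 to 32.6), and UVABs replicate 3 was high for Uqcrfs1 at 151 (others 141 to 143). With STSABs replicate 2 and UVABs replicate 2 left out together, 14 members were higher and 23 lower in STSABs against LPS, and 16 higher and 21 lower in UVABs against LPS.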

How the results depend on the processing

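The comparisons with Con moved most with the scaling, as did the median of all genes. With upper-quartile scaling, members higher and lower numbered 28 and 37 in LPS against Con, 23 and 36 in STSABs against Con, and 28 and 38 in UVABs against Con. With library totals they numbered 4 and 71, 3 and 67, and 5 and 68. Against LPS, members lower with library totals numbered 12 in STSABs and 11 in UVABs, and with replicates 1 to 3 only 9 and 5. Leaving out 1 library at a time gave 44 to 52 higher and 17 to 21 lower in LPS against Con, 13 to 15 and 14 to 21 in STSABs against LPS, 14 to 20 and 11 to 21 in UVABs against LPS, 46 to 52 and 15 to 21 in STSABs against Con, and 48 to 52 and 15 to 19 in UVABs against Con. The low of 11 came without UVABs replicate 4. With the replicate block, members numbered 54 higher and 17 lower in LPS against Con, 15 and 21 in STSABs against LPS, 18 and 18 in UVABs against LPS, 53 and 16 in STSABs against Con, and 53 and 16 in UVABs against Con, and no member or other gene was called between UVABs and STSABs (217 genes at an unadjusted p under 0.05). Over all groups, 12 of 18 libraries correlated best with their own number.

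In LPS against Con, median log2 changes with library totals turned to -0.33 for complex III, -0.15 for complex IV and -0.38 for complex V. With library totals the log2 change turned negative for Atp5a1 (-0.46), Atp5b (-0.44), Atp5g1 (-0.34), Atp5g3 (-0.28), Atpif1 (-0.61), Cox4i1 (-0.48), Cox5a (-0.45), Cox6a1 (-0.10), Cox6b1 (-0.028), Cox6b2 (-0.063), Cox7a2 (-0.10), Cox7b (-0.18), Cox8a (-0.14), Cyc1 (-0.54), Higd1a (-0.53), Ndufa4 (-0.49), Ndufs3 (-0.46), Ndufv2 (-0.65), Sdha (-0.65), Sdhc (-0.28), Sdhd (-0.73), Tfam (-0.61), Uqcr11 (-0.10), Uqcrc1 (-0.70) and Uqcrh (-0.17). With upper-quartile scaling it did so for Cox4i1 (-0.018), Cyc1 (-0.078), Higd1a (-0.059), Ndufa4 (-0.023), Ndufv2 (-0.18), Sdha (-0.18), Sdhd (-0.27), Tfam (-0.14) and Uqcrc1 (-0.23). Fits of named genes outside the members were added after seeing the data. Low counts limit Ndufa4l2, Cox6a2 and Cox7a1, with 0 to 64 counts in each library.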
